A study of Homo sapiens with 4 samples.

Results

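The genes described here encode the parts of the elastic fibre. They are 5 fibulins (FBLN1, FBLN2, FBLN5, EFEMP1 and EFEMP2), 2 fibrillins (FBN1 and FBN2), elastin (ELN) and 2 enzymes of the lysyl oxidase family (LOX and LOXL2). These 10 genes, of 60721 in the deposited count table, were taken by symbol. The set was chosen by the FBLN2 counts of this same comparison, in which FBLN2 was lower at low abundance in the cells that received siRNA against TLN1, so the FBLN2 values are given as a description with no test.

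RNA abundance was measured by sequencing of polyadenylated RNA in Hs578T cells, an established human breast carcinoma line. All cells were transfected with GFP. One group also received a non-targeting scrambled control RNA (SCR) and the other an siRNA against TLN1 (siTLN1), at 1.6 µM, with collection after 48 h. TLN1 encodes talin-1, which links integrins to actin and helps to switch integrins into their binding state. Each group held 2 libraries, described as biological replicates. The labels do not say whether these came from separate cultures, so p values may measure technical spread only. The headers of the counts carry 1 number shared by a library of each group (library a) and another shared by the remaining pair (library b), and what these numbers mark is not stated. The sequence of the siRNA is not given in the sources used here, and effects of that molecule and of talin-1 loss cannot be told apart.

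Elastic fibres form when secreted tropoelastin is deposited on a scaffold of fibrillin microfibrils and is cross-linked by lysyl oxidases. Short fibulins, chiefly those encoded by EFEMP2 and FBLN5, bring tropoelastin and the cross-linking enzyme to that scaffold. Microfibrils also hold latent TGF-beta through some of the latent TGF-beta binding proteins. Fibrillin-1 and fibulin-5 carry RGD sequences that integrins recognise, and fibrillin assembly depends on a fibronectin network that cells build through integrins.

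Total counts per library ran from 31854322 to 46353297, and 16137 genes passed the filter on low counts. Abundance is given as CPM, the counts of a gene scaled to library size, adjusted by TMM, a correction for differences in library composition. TLN1 had 868 and 874 CPM in the SCR libraries against 51.9 and 44.8 CPM in the siTLN1 libraries, which left a fitted log2 difference of −4.17 (SE 0.11). The source label calls the cells epithelial. Of 6 epithelial markers, EPCAM reached at most 0.144 CPM and KRT19 at most 0.128 CPM, with KRT19 at 0 counts in both SCR libraries, whereas KRT18 ran from 104 to 131 CPM. Of 5 mesenchymal markers, VIM ran from 3811 to 3968 CPM, and 1 changed, CDH2, which fell from 569 and 535 CPM in SCR to 303 and 293 CPM in siTLN1 (log2 fold change −0.89, edgeR adjusted p 2.45e-05). In the fibroblast list, LUM and DCN lay at 552 to 667 CPM and 337 to 471 CPM. In bulk RNA, fewer cells of a type and less RNA per cell cannot be told apart.

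A 7-base word, GACAACA, was looked up in the transcripts because earlier results of these data tied it to lower values of genes that carry it in the 3′ UTR. With GENCODE 29 sequences (GRCh38) and the transcript of longest coding sequence per gene, 7.36% of 12864 protein-coding genes tested hold it in the 3′ UTR on the sense strand. Their median log2 fold change was −0.098, against 0.019 for the 10043 genes with the word in neither the coding sequence nor the 3′ UTR. Among genes with a 3′ UTR of 1000 bases or more, these medians were −0.075 and 0.035. The word was taken from these same data, so the lower median restates that choice and is no independent support. Of the 10 genes, FBN2 alone holds it (in 4 of 6 coding transcripts), and the other 9 lack it in every annotated coding transcript, FBLN2 in all 6. The sites in FBN2 are shown because this gene, with the word, is the fibrillin whose level differed between the groups. Capitals mark the word, and each window is 27 bases, 5′ to 3′ on the transcript, which lies on the minus strand. The word in the 3′ UTR lies at chr5:128258756-128258762, and the coding copy crosses an exon junction, with its outer bases at 128273963 and 128274567.

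FBN2 3′ UTR: gctcatttgtGACAACAtttcatatca
FBN2 coding sequence: tgcttgtatcGACAACAacgaatgtgg

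A match of letters is not shown to be a site of action, and its part in the values below was not tested.

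Across the 10 genes, abundance spanned from near 0 for ELN to over 1000 CPM for FBN1 and LOXL2. To compare genes, CPM was divided by the kilobases of annotated exon. Per length, LOXL2 stood first with a mean of 192 CPM per kb in SCR. FBN1 (97.7 CPM per kb) and LOX (89.0 CPM per kb) followed, and their SCR libraries overlapped. FBLN1 (34.0 CPM per kb), EFEMP1 (32.6 CPM per kb) and EFEMP2 (21.4 CPM per kb) formed the middle, and the SCR libraries of FBLN1 (33.7 and 34.3 CPM per kb) lay just above those of EFEMP1 (31.6 and 33.6 CPM per kb). FBLN5 (2.97 CPM per kb), FBN2 (0.894 CPM per kb) and FBLN2 (0.253 CPM per kb) were low, and ELN was last at 0.0094 CPM per kb. The order of the 10 means was the same in siTLN1. Exon length here counts the exons of all annotated transcripts, so genes with long or alternative ends appear lower than their main transcript would.

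**Figure D1:**
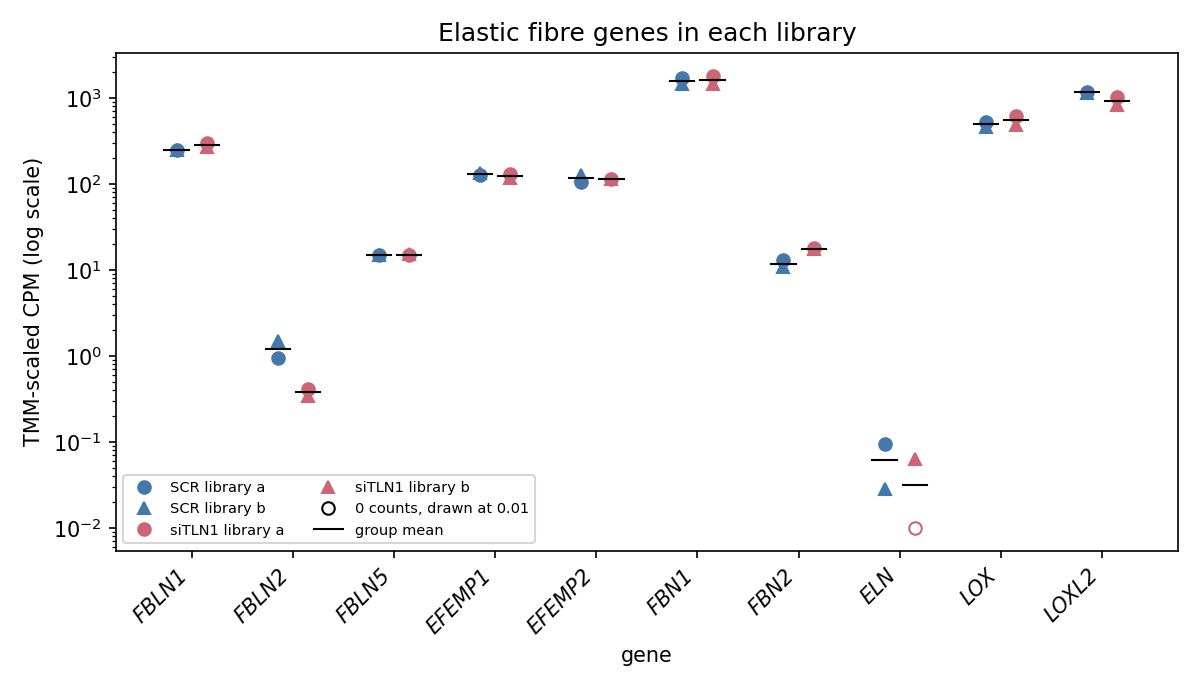
TMM-scaled CPM (log axis) of each elastic fibre gene in each library, with SCR in blue, siTLN1 in red, circles for library a, triangles for library b and black bars for the mean of the 2 libraries of a group. FBLN2 lies at 0.944 and 1.49 CPM in SCR and at 0.412 and 0.340 CPM in siTLN1, FBN2 is higher in both siTLN1 libraries, and ELN stays under 0.1 CPM.

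The comparison of siTLN1 with SCR asked which elastic fibre transcripts differ after talin-1 knockdown. FBN2 rose by 0.58 on the log2 scale, FBLN2 was lower in both siTLN1 libraries, and the major fibulins, FBN1, LOX and LOXL2 did not pass the test. Of the 8 genes other than FBLN2 that passed the filter, 1 (FBN2) had an adjusted p under 0.05, where 6.07% of all 16137 genes tested did. FBLN2 is left out of this count, because its values in this comparison chose the set. The median log2 fold change of the 9 genes with FBLN2 was 0.028, against 0.0033 over all genes tested, and it was −0.022 without siTLN1 library a. Adjusted p values are those of edgeR (quasi-likelihood F test), corrected by Benjamini-Hochberg over all genes tested.

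**Figure D2:**
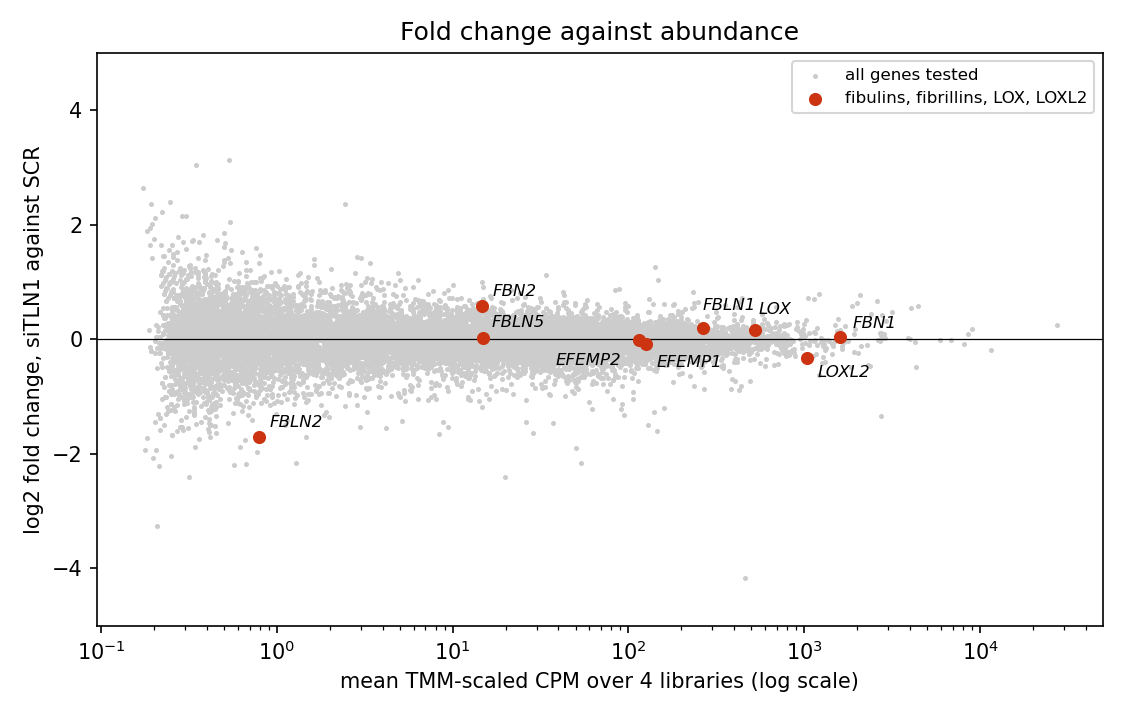
Fitted log2 fold change of siTLN1 against SCR for each gene tested (grey points) against its mean CPM over the 4 libraries on a log axis, with the 9 elastic fibre genes that passed the filter in red. FBLN2, at a log2 fold change of −1.71, sits at the low-abundance end, where grey points spread widely, and FBN2 (0.58) lies above FBLN5 (0.028) at a like abundance.

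FBLN2 (ENSG00000163520.14; GRCh38, chromosome 3, 13549125 to 13638422, plus strand) encodes fibulin-2, a long fibulin that binds fibrillin, fibronectin and basement membrane proteins. It had 30 and 52 counts in SCR libraries a and b, and 15 and 16 counts in siTLN1 libraries a and b. These equal 0.944 and 1.49 CPM in SCR against 0.412 and 0.340 CPM in siTLN1. Both siTLN1 libraries were below both SCR libraries, and SCR library b was the highest of the 4. The exact Poisson intervals (95%, counting error only) were 0.637 to 1.35 CPM and 1.12 to 1.96 CPM in SCR, and 0.231 to 0.680 CPM and 0.195 to 0.553 CPM in siTLN1. The interval of SCR library a therefore overlapped that of siTLN1 library a. The model put FBLN2 at −1.71 on the log2 scale (SE 0.36), or 0.305 of the SCR level. Without SCR library b it was −1.33. No exon base of FBLN2 is shared with another annotated gene.

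By a rule of likeness over the 4 libraries, the genes closest to FBLN2 among 2698 genes of like abundance were FAM218A, LINC02015 and ASPN. The distance between centred log2 CPM profiles was 0.255 for FAM218A, 0.396 for LINC02015 and 0.444 for ASPN. FAM218A had 42 and 69 counts in SCR against 24 and 28 counts in siTLN1, and LINC02015 had 29 and 39 against 10 and 15. ASPN, which encodes the matrix proteoglycan asporin, had 26 and 37 counts in SCR against 8 and 9 counts in siTLN1. All 3 were lower in both siTLN1 libraries and highest in SCR library b. The choice by likeness to FBLN2 favours both patterns, so neither is a separate result.

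FBLN1 (chromosome 22, 45502238 to 45601135, plus strand) encodes fibulin-1, the other long fibulin of the set and a partner of fibronectin and elastin. It measured 245 and 250 CPM in SCR and 294 and 271 CPM in siTLN1. Both siTLN1 libraries were above both SCR libraries by a small margin. FBLN1 differed by 0.19 on the log2 scale (SE 0.093), with an interval from −0.0063 to 0.39 and an edgeR adjusted p of 0.271, and did not pass. FBLN2 amounted to 0.582% and 0.903% of FBLN1 per length in SCR, and to 0.212% and 0.190% in siTLN1. The FBLN2 counts chose the set, so a lower ratio follows from that choice and is given as a description.

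EFEMP1, EFEMP2 and FBLN5 encode the short fibulins 3, 4 and 5. EFEMP2, the fibulin needed for cross-linking of elastin, measured 106 and 125 CPM in SCR and 114 and 115 CPM in siTLN1. The siTLN1 values lay between those of the SCR libraries, and the log2 fold change was −0.016 with an interval from −0.23 to 0.19 (edgeR adjusted p 0.955). EFEMP1, which is linked to inherited macular disease, measured 125 and 133 CPM in SCR and 130 and 115 CPM in siTLN1, with overlap. Its log2 fold change was −0.077 with an interval from −0.28 to 0.13 (edgeR adjusted p 0.731). FBLN5 measured 14.8 and 14.7 CPM in SCR and 14.7 and 15.4 CPM in siTLN1. Its log2 fold change was 0.028 with an interval from −0.21 to 0.27 (edgeR adjusted p 0.929). These intervals leave room for changes of up to about 0.28 on the log2 scale in either direction. Leaving out 1 library turned the sign of all 3, with EFEMP2 at 0.11 without SCR library b, and EFEMP1 at 0.0092 and FBLN5 at −0.0010 without siTLN1 library b.

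Shares were taken of the summed level per length of the 5 fibulins in the set. FBLN7 (mean of 4.42 CPM per kb in SCR) and HMCN1 (10.3 CPM per kb), listed below as fibulin relatives, are not in this sum. FBLN1 made up 38.2% and 36.4% in SCR and 41.5% and 41.0% in siTLN1. EFEMP1 made up 35.9% and 35.6% in SCR and 33.6% and 32.1% in siTLN1, and EFEMP2 between 21.7% and 24.6% in the 4 libraries. FBLN5 held 3.04% to 3.41%. FBLN2 held 0.222% and 0.328% in SCR against 0.0879% and 0.0779% in siTLN1, the least of the 5 fibulins. The set was chosen by the fall of FBLN2 at low abundance, so its fold change and its low share both restate that choice. The summed level of the 5 fibulins was 88.1 and 94.4 CPM per kb in SCR and 97.3 and 90.7 CPM per kb in siTLN1, with overlap.

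FBN2 (ENSG00000138829.12; chromosome 5, 128257909 to 128659185, minus strand) encodes fibrillin-2, the fibrillin best known from development. It had 413 and 371 counts in SCR and 653 and 818 counts in siTLN1. These equal 13.0 and 10.7 CPM in SCR against 17.9 and 17.4 CPM in siTLN1. Both siTLN1 libraries exceeded both SCR libraries, and the siTLN1 pair lay closer together than the SCR pair. FBN2 rose from 11.8 ± 1.65 to 17.7 ± 0.376 CPM (SD, n = 2 each), or by 0.58 on the log2 scale (SE 0.12, interval 0.32 to 0.84, edgeR adjusted p 0.00909). Of all genes tested, 2.30% rose. Leaving out SCR library b (0.44, edgeR adjusted p 0.0579) or siTLN1 library a (0.56, edgeR adjusted p 0.0819) ended the call, in a range from 2.86e-07 to 0.0819 over all fits. Of its exon bases, 0.424% lie in exons of SLC27A6 on the opposite strand, a gene with 60 counts over the 4 libraries.

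FBN1 (chromosome 15, 48408306 to 48645849, minus strand) encodes fibrillin-1, the main microfibril protein and the gene mutated in Marfan syndrome. It measured 1708 and 1431 CPM in SCR and 1806 and 1432 CPM in siTLN1. Library a exceeded library b in both groups, by log2 ratios of 0.25 and 0.34, and the groups overlapped. Its log2 fold change was 0.045 with an interval from −0.23 to 0.32 (edgeR adjusted p 0.901). Leaving out SCR library b gave −0.076, and leaving out siTLN1 library a gave −0.13. Within a library, FBN2 amounted to 0.924% and 0.904% of FBN1 per length in SCR and to 1.21% and 1.48% in siTLN1. The ratio was higher in both siTLN1 libraries, and fibrillin-1 RNA remained in large excess in all 4.

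ELN (chromosome 7, 74027789 to 74069907, plus strand), which encodes tropoelastin, the elastic core of the fibre, had 3 and 1 counts in SCR and 0 and 3 counts in siTLN1. It did not pass the filter on low counts and was not tested. These counts equal 0.0944 and 0.0287 CPM in SCR and 0 and 0.0638 CPM in siTLN1. The 0 in siTLN1 library a allows up to 0.0824 CPM by the limit of 3 counts, or 0.101 CPM by the upper end of the exact Poisson interval (95%). The ratio of siTLN1 to SCR over the summed counts was 0.599, with an exact counting interval from 0.0878 to 3.54. This interval holds both falls and rises, so no direction of change could be told at this depth. ELN was thus near the limit of detection in all 4 libraries. Of the ELN exon bases, 2.52% are shared with ELN-AS1 on the opposite strand.

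LOX (chromosome 5, 122063195 to 122078360, minus strand) encodes lysyl oxidase, which oxidises lysines of collagen and elastin so that they cross-link. It measured 527 and 461 CPM in SCR and 618 and 486 CPM in siTLN1. Library a exceeded library b in both groups, by log2 ratios of 0.19 and 0.35, and the groups overlapped. Its log2 fold change was 0.16 with an interval from −0.097 to 0.42 (edgeR adjusted p 0.514), and it was −0.022 without siTLN1 library a. Of its exon bases, 2.49% are shared with SRFBP1 on the opposite strand.

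LOXL2, a relative that also cross-links collagen IV, measured 1158 and 1142 CPM in SCR and 1023 and 817 CPM in siTLN1. Both siTLN1 libraries were below both SCR libraries, with siTLN1 library b the lowest. LOXL2 differed by −0.32 on the log2 scale (SE 0.11), with an interval from −0.56 to −0.081 and an edgeR adjusted p of 0.114, which did not pass. Without siTLN1 library b it was −0.16. Opposite-strand and same-strand neighbours share 2.97% and 2.01% of its exon bases, the latter with ENTPD4. Per length, LOX amounted to 49.1% and 43.5% of LOXL2 in SCR and to 65.1% and 64.2% in siTLN1, with no overlap. Neither gene passed on its own. Of all single genes tested, 23.9% were higher and 24.6% lower in siTLN1 without overlap, and no such share was computed for ratios. A test of single values with 2 libraries against 2 cannot go below an exact permutation p of 0.333, so the 3 ratios within libraries are given without one.

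**Figure D3:**
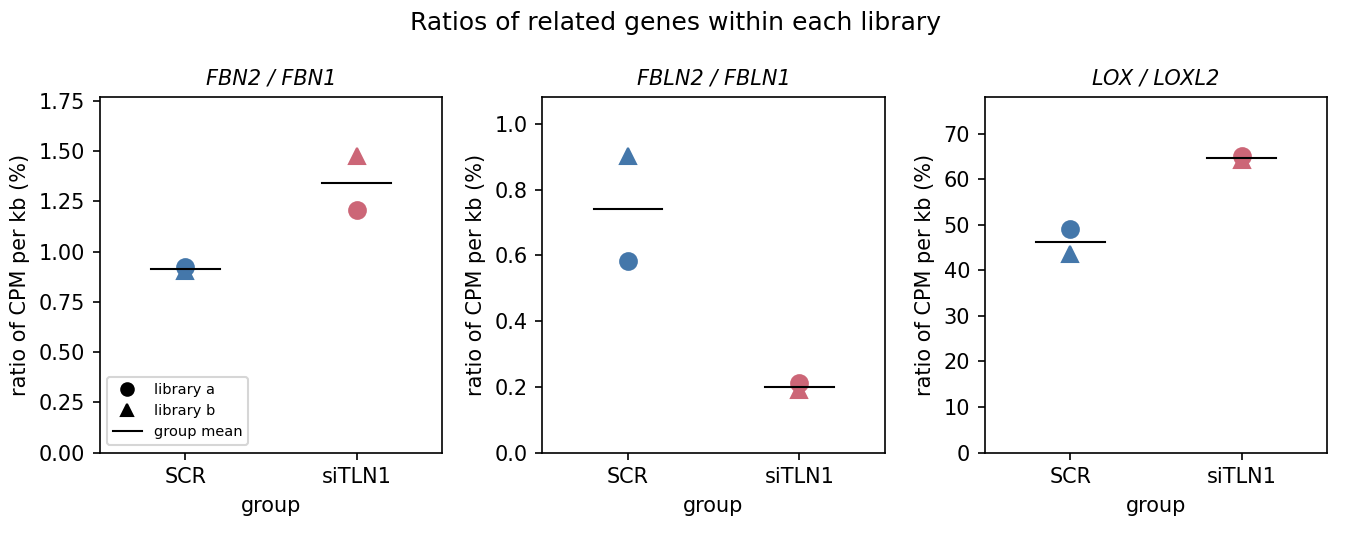
Ratios of CPM per kb between related genes within each library, in percent on axes that start at 0, by group, with circles for library a, triangles for library b and bars for group means. FBN2 over FBN1 and LOX over LOXL2 are higher, and FBLN2 over FBLN1 lower, in both siTLN1 libraries than in both SCR libraries. The FBLN2 ratio restates the counts that chose the set.

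By non-overlap of libraries, 2 of the 8 tested genes other than FBLN2 were higher in siTLN1 (FBLN1 and FBN2), where 23.9% of all genes tested were. Of these 8, 1 was lower (LOXL2), where 24.6% of all genes were. The remaining 5 overlapped. FBLN2, whose values chose the set, is left out of these counts. The summed abundance of the 10 genes was 3898 and 3569 CPM in SCR and 4018 and 3268 CPM in siTLN1, with library a above library b in both groups.

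The elastic fibre pathway beyond these genes was described with a list of 47 partners, enzymes, receptors and growth factors, of which 42 were tested. Among them, 4 rose (LTBP2, HMCN1, ADAMTS10 and DCN) and 3 fell (FBLN7, THSD4 and TGFB2). This is 16.7% of the 42, against 6.07% of all genes tested, but without siTLN1 library a 2 of the list passed and 324 genes in all. By direction, 2.30% of all genes rose and 3.77% fell. The list was drawn up with earlier results of these data known, so its share is a description. It was not matched to all genes on abundance. The median log2 fold change of the 42 was 0.085, against 0.0033 over all genes. The 5 genes not tested (FBN3, EMILIN3, HMCN2, TLL2 and MMP12) had at most 4 counts in any library.

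**Figure D4:**
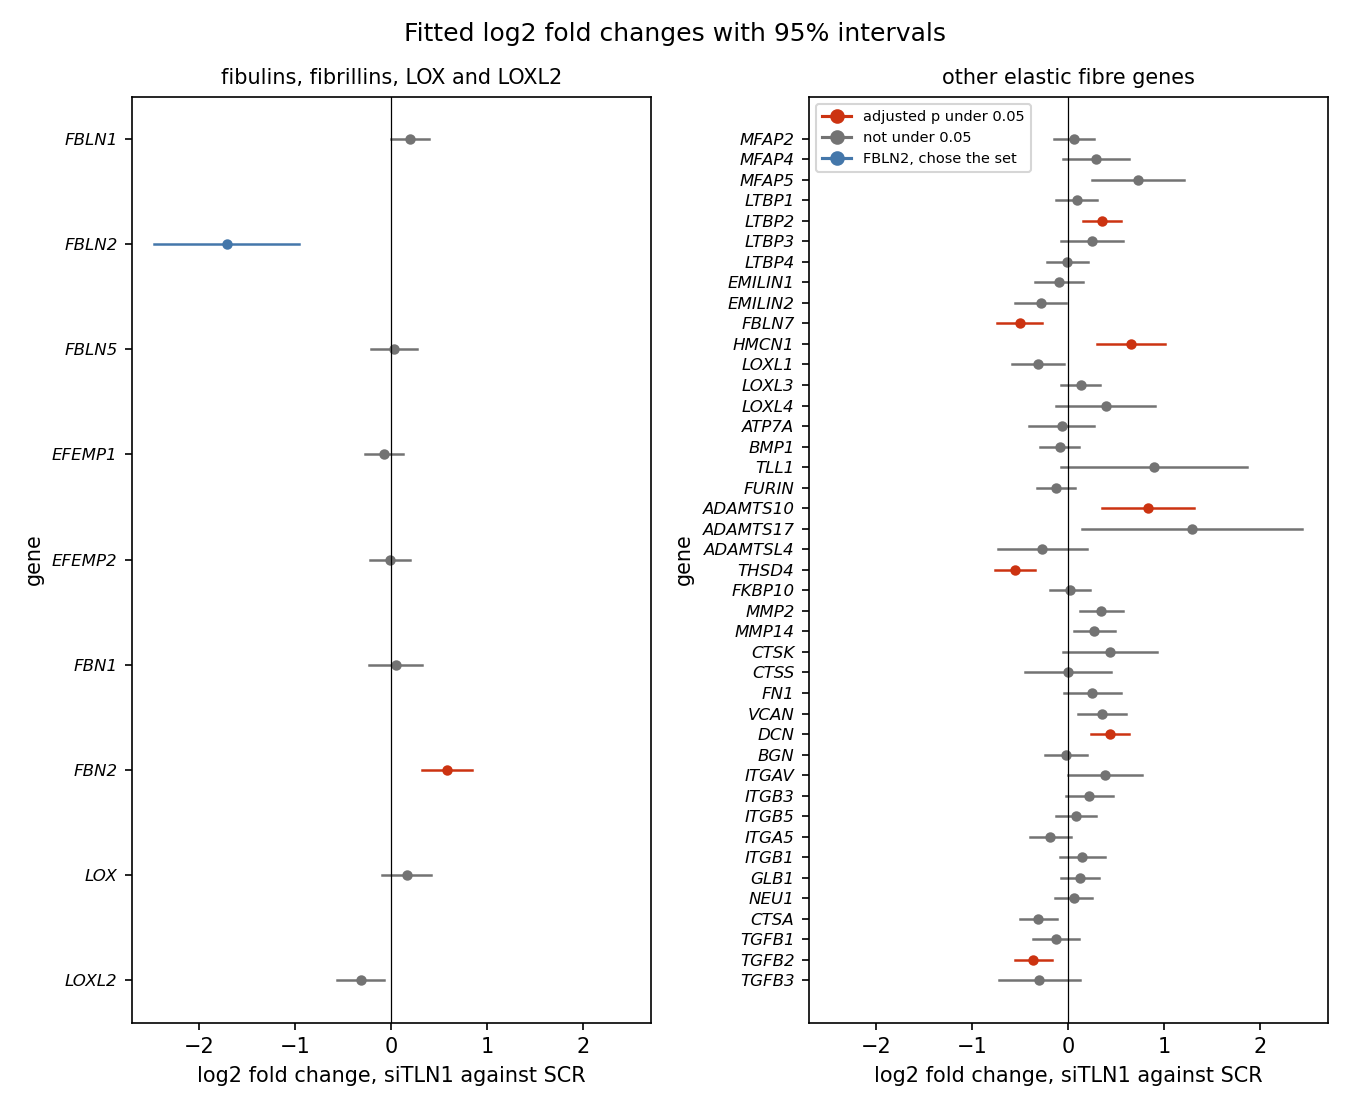
Fitted log2 fold changes of siTLN1 against SCR (points) with 95% intervals (lines) for the 9 elastic fibre genes and for the 42 other genes of the pathway that passed the filter; red marks an edgeR adjusted p under 0.05, grey the rest and blue FBLN2, whose values chose the set. FBN2 at 0.58 and 7 genes of the other list are red, 4 to the right and 3 to the left of 0.

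Microfibril partners gave 1 rise among 9 tested. LTBP2, named for its protein family, encodes a protein that joins fibrillin-1 microfibrils. It measured 142 and 153 CPM in SCR and 197 and 181 CPM in siTLN1, with no overlap. LTBP2 rose by 0.35 on the log2 scale (SE 0.094, edgeR adjusted p 0.0335). Its call was lost with no filter on low counts (edgeR adjusted p 0.0542) and without SCR library a, siTLN1 library a or siTLN1 library b, in a range from 4.02e-06 to 0.323. LTBP1, the most abundant of this group, measured 954 and 897 CPM in SCR and 1024 and 945 CPM in siTLN1, with overlap and a log2 fold change of 0.089 (edgeR adjusted p 0.699).

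Both tested relatives of the fibulins passed, in opposite directions, where 6.07% of all genes tested passed. The list was drawn up with earlier results known, so this count is a description. FBLN7, a fibulin relative involved in cell adhesion, measured 28.3 and 29.9 CPM in SCR and 22.2 and 18.8 CPM in siTLN1, with no overlap. FBLN7 fell by 0.51 on the log2 scale (SE 0.11, edgeR adjusted p 0.0112). The fall missed the threshold without siTLN1 library b (−0.39, edgeR adjusted p 0.145, the highest of a range that starts at 3.05e-07). HMCN1, which encodes the very large hemicentin-1 with a fibulin-type end, measured 216 and 169 CPM in SCR and 354 and 252 CPM in siTLN1. HMCN1 rose by 0.65 on the log2 scale (SE 0.16, edgeR adjusted p 0.0396). It was higher in library a than in library b in both groups, with no overlap between the groups. Its value was 0.39 without siTLN1 library a, and the call was also lost with DESeq2 (adjusted p 0.231), limma-voom (0.0507) and no filter (0.0531), in a range from 1.79e-15 to 0.231.

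Processing and assembly factors gave 1 rise and 1 fall among 8 tested. THSD4, which encodes an ADAMTS-like protein that promotes fibrillin-1 assembly, measured 48.7 and 46.1 CPM in SCR and 32.4 and 32.2 CPM in siTLN1. THSD4 fell by 0.55 on the log2 scale (SE 0.097, edgeR adjusted p 0.00225). It passed under every alternative run, each fit without 1 library included, with log2 fold changes from −0.59 to −0.51. ADAMTS10, a protease that binds fibrillin-1, measured 1.29 and 1.32 CPM in SCR and 2.28 and 2.36 CPM in siTLN1. ADAMTS10 rose by 0.83 on the log2 scale (SE 0.22, edgeR adjusted p 0.0363). Its call was lost in each of the 4 fits that left out a library, with DESeq2 (adjusted p 0.147), with limma-voom (0.0537) and with no filter (0.0518), in a range from 0.00263 to 0.147. FKBP10, a collagen and tropoelastin chaperone and the most abundant of this group, measured 431 and 488 CPM in SCR and 469 and 460 CPM in siTLN1, with overlap.

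Among scaffold genes, DCN, which encodes decorin, a proteoglycan of collagen fibrils, measured 337 and 339 CPM in SCR and 471 and 442 CPM in siTLN1. DCN rose by 0.43 on the log2 scale (SE 0.094, edgeR adjusted p 0.0103). The call was lost without siTLN1 library a (0.39, edgeR adjusted p 0.131, the highest of a range that starts at 1.27e-08). DCN is also in the list of 5 fibroblast markers, of which 1 passed. Their summed level was 13033 and 13930 CPM in SCR and 12880 and 11452 CPM in siTLN1, of which COL1A1 alone gave 11773 and 12705 CPM in SCR and 11408 and 10080 CPM in siTLN1. Of the 5, 3 (DCN, LUM and PDGFRB) had positive and 2 (PDGFRA and COL1A1) negative log2 fold changes, and the part of these markers in the results was not tested. FN1, which encodes the fibronectin on which microfibrils assemble, measured 26298 and 23553 CPM in SCR and 32369 and 26960 CPM in siTLN1. Its groups did not overlap, but the log2 fold change of 0.25 had an edgeR adjusted p of 0.343.

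TGFB2, a growth factor held in latent form by microfibrils, measured 178 and 185 CPM in SCR and 142 and 140 CPM in siTLN1. TGFB2 fell by 0.37 on the log2 scale (SE 0.090, edgeR adjusted p 0.0233), the only call among 3 TGF-beta genes. It was lost with no filter (edgeR adjusted p 0.0526) and without SCR library b, siTLN1 library a or siTLN1 library b, in a range from 1.29e-06 to 0.179, and 22.7% of its exon bases are shared with TGFB2-OT1 on the same strand. None of the 4 other cross-linking genes, 4 degradation genes, 5 integrin subunits or 3 parts of the elastin receptor passed edgeR's test. Their most abundant genes were LOXL3 (log2 fold change 0.13), MMP2 (0.34), ITGB1 (0.15) and CTSA (−0.31), with edgeR adjusted p from 0.0540 for CTSA to 0.514 for LOXL3 and ITGB1. MMP2 and CTSA passed with total counts only, with DESeq2 and with the gene-length trend removed, and 28.5% of the exon bases of CTSA lie in exons of opposite-strand genes.

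Of the 7 genes of the list that passed, TGFB2 holds GACAACA in the 3′ UTR. So do 3 of all 42 tested genes of the list, and 7.36% of the 12864 genes searched. The others of these 3, MFAP5 (log2 fold change 0.73) and CTSS (−0.0015), did not pass. FBN2, which also holds the word there, rose. Another 4 of the 7 that passed (LTBP2, HMCN1, THSD4 and DCN) hold it in coding sequence only. So do 15 of all 42 tested genes of the list, and 14.6% of the 12864 genes searched. FBLN7 and ADAMTS10 lack it in every annotated coding transcript.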

How the data were processed

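The authors deposited raw counts for each gene of GENCODE 33 (GRCh38), obtained from read pairs by featureCounts 2.0.0 without a strand setting, per the file headers. STAR 2.7.9a is named in the submitters' processing notes. Because libraries were stranded but counted without strand, reads of overlapping opposite-strand genes cannot be told apart. Exon length is a further deposited column, in another unit. The authors also deposited log2 CPM values for 16137 genes. When checked, 100% of these, sorted within groups, equalled edgeR's TMM log2 CPM within 1e-06. Count columns name only their group, and the letters a and b follow a number shared across groups. Over all genes, replicates differed by more than counting noise (chi-square per degree of freedom 12.5 and 16.3).

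Counts were tested with edgeR 4.0.16 (R 4.3.3) after filterByExpr (minimum count 10, total 15) and TMM, by glmQLFit and glmQLFTest, with Benjamini-Hochberg adjustment and a threshold of 0.05. Alternatives were RLE scaling, total counts only, other filters, DESeq2 1.42.0, limma 3.58.1 (voom, and trend on the deposited log2 CPM with and without a replicate block), each library left out and, added after seeing the data, removal of the gene-length trend (span 0.3). A fit without a library assumes that the lone sample varies like the other group. On simulated data of this comparison with 15876 genes, 198 of the 200 that were changed 2-fold passed in edgeR, and 12 unchanged ones did too. The changed genes were drawn from those with higher counts, and all genes were given the same dispersion. Recovery of smaller changes, or of genes with counts as low as those of FBLN2, was not simulated. Symbols came from a table of gene identifiers. The genes and lists were chosen with earlier results of these data known. Genes are named if they belong to the set, are TLN1, are among the 6 smallest p values past the threshold in the list of other genes, or are the most abundant of their role there, and likeness to FBLN2 is the Euclidean distance of centred log2 CPM (prior count 2) among genes within 2-fold of its mean. Protein sequences were not used here.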

Additional observations from a re-analysis of the deposited data

How the results depend on the processing

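The number of genes changed was 980, and it stayed between 663 and 1387 under the alternatives with all 4 libraries and no block. It ran from 324 without siTLN1 library a to 1100 without SCR library a across the fits that left out 1 library. FBLN2 chose the set, so its calls support nothing, and FBN2 is the only other call of edgeR with all 4 libraries. With FBLN2 counted, 2 of the 10 elastic fibre genes passed, and 0 to 2 did with 1 library left out (0 without SCR library b, 1 without siTLN1 library a). With DESeq2 the number was 1, because FBLN2 received no adjusted p there. Of the other elastic fibre genes 7 passed, 3 did with no filter on low counts, 5 with limma-voom, 10 with total counts only, 10 with the gene-length trend removed, and 2 to 8 with 1 library left out. The cause of these shifts was not tested, apart from the larger number of genes adjusted for without a filter (32708). The replicate numbers of the labels gave differences between replicates that correlated at 0.19 between the groups. No label states a shared preparation and 2 pairs are too few to establish one. With the replicate block, 3645 of the 16137 genes tested passed in limma-trend, against 966 without the block. Of the 3645, 970 were in the set of 980. So high a number over all genes forms the background of the counts that follow. Of the 9 tested elastic fibre genes 4 passed, FBLN2 included, with limma-trend adjusted p 0.0159 for FBLN1 and 5.52e-05 for LOXL2. FBN2 was the remaining one. Of the 42 tested other genes 18 passed, among them MMP2 (limma-trend adjusted p 1.22e-05), CTSA (3.00e-05) and FN1 (0.0188). The lowest adjusted p in each range printed for FBN2, LTBP2, FBLN7, HMCN1, DCN, TGFB2 and ADAMTS10 is that of the fit with the block. Of 311 values of named genes under alternatives, 269 kept direction and side of the threshold. Signs turned only in fits without 1 library, where values ran from −0.0010 to 0.061 for FBLN5, −0.16 to 0.0092 for EFEMP1, −0.13 to 0.11 for EFEMP2, −0.13 to 0.21 for FBN1, −0.022 to 0.33 for LOX and −0.070 to 0.11 for FKBP10. None of these 6 genes passed with all 4 libraries and no block. ELN had too few counts to be tested, and the counting intervals of FBLN2 overlapped between SCR library a and siTLN1 library a.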
